A study of Mus musculus with 6 samples.

Results

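The 10 genes described here are relatives and protein partners of Wrn, the RecQ helicase and exonuclease whose human counterpart is lost in Werner syndrome. They are the other RecQ helicases Blm, Recql, Recql4 and Recql5, the topoisomerase Top3a, the single-strand DNA binding subunit Rpa1, Xrcc5 and Prkdc of non-homologous end joining, and the telomere proteins Terf1 and Terf2. Every non-control probe that the arrays name after one of these genes was taken, which gave 14 probes of the 41174 on the array. By name these are 10 of the 29742 gene names the array carries. Recql had 2 probes, Terf2 had 4, and each of the other genes had 1. A gene with several probes was represented by its brightest probe, and the other probes are given beside it.

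RNA came from mouse embryonic fibroblasts, primary connective tissue cells grown from embryos at day 15, and was measured on 6 two-colour Agilent arrays. Wild type cells and cells homozygous for Wrn Δhel, an in-frame deletion within the helicase domain, were each left untreated or treated with 0.5 mM H2O2 and harvested after 24 hours of recovery in fresh medium. The deletion was carried in the germ line, and the replicates were separate cultures. Treated cells (Cy5) were set against untreated cells (Cy3) of the same genotype on 2 arrays per genotype, replicates 1 and 2, while 2 further arrays, replicates 3 and 4, set mutant against wild type cells, both without treatment. Dyes were not swapped on any array, and a probe that takes up Cy5 better than Cy3 is therefore higher in each ratio.

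RecQ helicases unwind forked, branched and G-quadruplex DNA, and several of them act at stalled replication forks. Blm works with Top3a to take apart double Holliday junctions without crossing over, RPA coats the single strands that the helicases expose, and Wrn binds the Ku heterodimer and the telomere protein Terf2. Xrcc5 is the larger Ku subunit and Prkdc the kinase that Ku recruits to a broken end. Terf1 and Terf2 bind double-stranded telomere repeats within shelterin, the complex that caps chromosome ends.

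The start site windows of Recql, Blm and Rpa1 are shown because these genes carry results described below and have an entry in the promoter table used here. Each runs from 250 bases before to 50 bases after a RefSeq transcript start on build GRCm38.p6, written 5′ to 3′ on the gene's strand. Blm lies at chr7:80534949-80535248, Recql at chr6:142386893-142387192 and Rpa1 at chr11:75348334-75348633, all on the minus strand. Recql has a further window with another start. Capitals mark matches on either strand to the Sp1 box GGGCGG, the CCAAT box CCAAT and the E2F core GCGGGAA.
Blm: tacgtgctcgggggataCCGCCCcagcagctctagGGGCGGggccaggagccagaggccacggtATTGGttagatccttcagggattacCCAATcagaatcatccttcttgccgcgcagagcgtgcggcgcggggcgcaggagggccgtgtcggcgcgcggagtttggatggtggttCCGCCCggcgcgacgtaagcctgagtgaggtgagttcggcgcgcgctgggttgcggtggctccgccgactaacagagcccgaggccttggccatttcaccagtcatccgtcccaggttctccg
Recql: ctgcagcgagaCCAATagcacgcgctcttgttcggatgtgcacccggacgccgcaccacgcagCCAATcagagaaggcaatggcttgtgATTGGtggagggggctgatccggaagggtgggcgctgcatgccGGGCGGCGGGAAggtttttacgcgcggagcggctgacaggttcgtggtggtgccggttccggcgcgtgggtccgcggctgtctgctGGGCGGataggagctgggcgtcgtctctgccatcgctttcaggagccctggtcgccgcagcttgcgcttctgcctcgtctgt
Rpa1: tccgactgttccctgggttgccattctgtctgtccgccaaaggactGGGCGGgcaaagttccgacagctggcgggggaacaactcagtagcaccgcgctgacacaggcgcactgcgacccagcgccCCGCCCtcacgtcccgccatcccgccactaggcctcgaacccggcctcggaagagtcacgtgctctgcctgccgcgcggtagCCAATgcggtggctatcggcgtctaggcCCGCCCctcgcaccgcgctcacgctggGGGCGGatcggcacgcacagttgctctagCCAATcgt
The Sp1 box matched 3 times in the Blm window, 2 times in that of Recql and 4 times in that of Rpa1. The CCAAT box matched 2, 3 and 2 times. The single E2F core, in Recql, shares 1 base with an Sp1 box. Of all 32851 windows in the table, 35.7% held the Sp1 box, 37.4% the CCAAT box and 4.6% the E2F core. The NRF-1 site GCATGCGC, held by 2.71% of all windows, and the antioxidant response element TGACNNNGC, held by 12.4%, had no match in the 3 windows shown.

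The arrays held 41534 non-control spots each, of which Cy3 stood well above background on 75.8% to 90.0% and Cy5 on 41.5% to 69.2%. Spot intensities of the 4 treatment arrays were extracted on one day and those of the direct arrays each on another day. Outlier spots, which were left out, ranged from 166 to 9368 per array and were most frequent on wild type replicate 2, where Recql, Xrcc5, Terf1 and 3 probes of Terf2 lost their value. All 8 fibroblast markers, among them the collagen gene Col1a1 and vimentin (Vim), were well above background in both dyes on all 6 arrays. So were 4 of 6 skeletal muscle markers, including Myod1 and Acta1, and the macrophage markers Csf1r and Itgam, but not Adgre1, Cd68 and Ptprc. Of the epithelial markers, Cdh1 reached that level in Cy3 on 1 array and in Cy5 on none. Epcam reached it in Cy3 on 6 arrays and in Cy5 on 4. The probe of Wrn gave log2 ratios of 0.06 and -0.02 in treated wild type cells, 0.28 and 0.21 in treated mutant cells and 0.53 and 0.19 for mutant over wild type cells. Where this probe lies relative to the deletion is not given in the sources used here, and an in-frame deletion leaves most of the mRNA, so Wrn does not check the genotypes.

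Among the 10 genes, Blm and Top3a had the largest log2 ratios in H2O2-treated wild type cells, Blm above and Top3a below 0. The values below are log2 ratios of treated over untreated cells, n = 2 arrays, with limma's SE and Benjamini-Hochberg adjusted p over 40303 probes. Of the 14 probes 0 passed an adjusted p of 0.05, beside 0.258% of all probes, and 2 passed the unadjusted p, beside 20% of all probes. By the study's thresholds, at least a 2-fold change with a mean log2 intensity over 6 and an adjusted p under 0.005, neither a member nor any other probe was called, 0% of those tested. The study itself reported changed genes in both genotypes at these thresholds, although the legends of its gene lists give a looser adjusted p. The 0% belongs to the fit used here, with 6 arrays fitted together and outlier spots left out. Why the counts differ was not tested. The median over the 10 genes was 0.13 and that over all probes -0.01. On the same arrays 5 of 6 proliferation genes were above 0 (median 0.57) and 4 of 5 fibroblast markers (median -1.09) and 5 of 6 skeletal muscle markers (median -0.63) below 0. Of these fibroblast markers Dcn alone had a value on both arrays (-1.53 and -0.69), and the median was that of Pdgfrb on replicate 1. Myod1, Myog, Acta1 and Myh3 had a value on replicate 1 alone, and the proliferation gene Top2a on replicate 2 alone. The part of these proliferation genes and markers in the values below was not tested.

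Blm, probe A_51_P314418, gave log2 ratios of 0.96 and 0.69 on the wild type arrays. The fitted value was 0.82 (SE 0.16), a level 1.77-fold higher in treated cells (limma adjusted p = 0.0616). Top3a, probe A_51_P203451, gave -0.92 and -1.06, with a fitted value of -0.99 (SE 0.20) and a level 1.99-fold lower (limma adjusted p = 0.0687). Both genes lay on the same side of 0 on both arrays. These calls turned on the arrays fitted together. With the wild type arrays alone limma's adjusted p was 0.00264 for Blm and 0.000971 for Top3a, and 5 of the 14 probes passed beside 10115 of all probes. Between the arrays of a pair, over all probes, r was 0.783 in wild type cells, 0.624 in mutant cells and 0.542 for mutant against wild type cells. Leaving out replicate 3 or replicate 4 of the last pair gave 4 passing probes, and over all alternatives limma's adjusted p ran from 0.00241 to 0.837 for Blm and from 0.000873 to 0.782 for Top3a. The count over all probes ran from 0 to 10115 over these alternatives, so the member counts alone give no result about these genes.

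**Figure D1:**
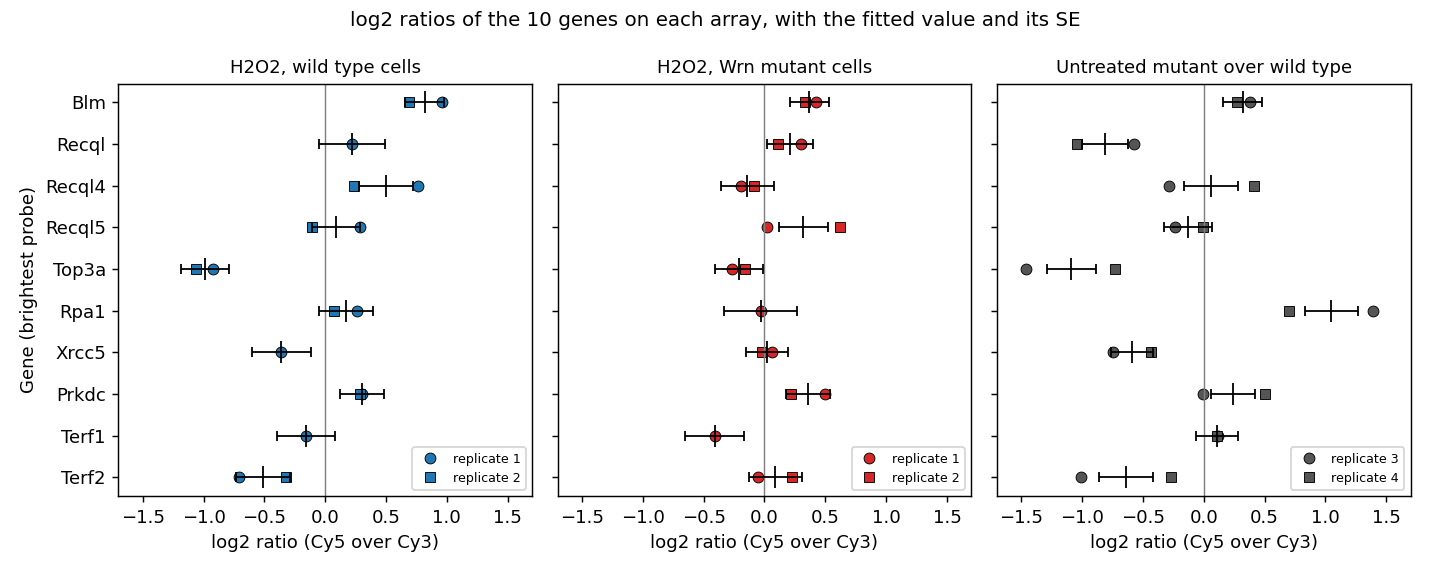
log2 ratios of Cy5 over Cy3 (x axis) for the brightest probe of each of the 10 genes (y axis) on the 2 arrays of each comparison; ticks and bars give limma's fitted value and its SE, and a missing point is an outlier spot. Blm (0.96 and 0.69) and Top3a (-0.92 and -1.06) lie farthest from 0 in wild type cells, Top3a, Rpa1 and Recql in mutant against wild type cells.

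The remaining RecQ helicases had smaller ratios in wild type cells. Recql4, whose human counterpart is mutated in Rothmund-Thomson syndrome, gave log2 ratios of 0.76 and 0.24 (fitted 0.50, SE 0.22, limma adjusted p = 0.27). Recql gave 0.22 on the array that measured it, and Recql5 gave 0.29 and -0.11. All 4 helicases had a fitted value above 0, with a median log2 ratio of 0.36. The Cy5 signal of Recql5 was not well above background on any of the 6 arrays, and its Cy3 signal was well above it on 4.

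Among the DNA binding partners, Rpa1 gave log2 ratios of 0.26 and 0.07 in wild type cells, and the other RPA subunits 0.17 and -0.15 (Rpa2) and 0.91 and 0.83 (Rpa3, limma adjusted p = 0.0969). Xrcc5 gave -0.36 on replicate 1, with its spot on replicate 2 left out as an outlier. Prkdc gave 0.30 and 0.29 (adjusted p = 0.424 in limma's fit). Terf1 gave -0.16 on replicate 1 and Terf2 gave -0.71 and -0.32 on its brightest probe, with an adjusted p of 0.259 by limma. Median centring in place of loess turned the fitted values of Xrcc5, Terf1 and Terf2 to 0.18, 0.24 and 0.05.

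None of the 10 genes passed the test in H2O2-treated mutant cells. Of the 14 probes 0 passed the adjusted and 0 the unadjusted p, beside 0% and 12% of all 41052 probes tested in limma's fit. The study's thresholds also called 0% in this fit, whereas the study itself reported changed genes in mutant cells. The log2 ratios of Blm were 0.42 and 0.33, with a fitted value of 0.37 (SE 0.16, limma adjusted p = 0.417). Those of Top3a were -0.27 and -0.16, with a fitted value of -0.21 (SE 0.20, limma adjusted p = 0.733). Fitted values of the other genes ran from -0.41 for Terf1, with a value on 1 array, to 0.36 for Prkdc. The median over the 10 genes was 0.05, and that over all probes was 0.01.

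Whether the response differed between the genotypes was tested directly, as the mutant minus the wild type response. Blm was higher by 0.82 in wild type and by 0.37 in mutant cells, a difference of -0.45 (SE 0.22, limma adjusted p = 0.849). Top3a differed by 0.78 (SE 0.29, limma adjusted p = 0.825). Recql4 had log2 ratios of -0.19 and -0.09 in mutant cells and differed by -0.64 (SE 0.31, limma adjusted p = 0.849). Terf2 differed by 0.61 (SE 0.31, limma adjusted p = 0.854). In these 4 genes the ratios of the mutant arrays did not overlap those of the wild type arrays, among 7 probes with a value on all 4 arrays. Such a separation was found in 47.4% of all 29913 probes with 4 values. Over all probes 0% passed the adjusted p and 5.94% the unadjusted p, and of the 14 probes 0 and 1 (Top3a) passed, so a difference in response was not shown for any of the 10 genes.

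On the arrays that compared untreated mutant and wild type cells directly, Top3a, Rpa1 and Recql passed the adjusted p, a share close to that of all probes. The labels of these arrays give wild type cells as Cy5, whereas the study's own table of this comparison gives mutant over wild type cells as Cy5 over Cy3. The direction of that table is used here, and by the labels every sign of this comparison would turn. Labelled with the same dye, untreated mutant and wild type cells of the other 4 arrays (Cy3) can be compared without that doubt, and over 40228 probes the Cy3 difference correlated with the ratio as signed here (r = 0.591, with 65.6% of probes of the same sign, across probes that share arrays). Over the 712 of these probes that passed the study's thresholds, r was 0.938 and 99.2% had the same sign.

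Of the 14 probes, 3 passed an adjusted p of 0.05 (21.4%), beside 19.6% of all 41099 probes in limma's fit, so the share among the members was close to the background. At the unadjusted p 6 of the 14 passed, beside 35.9% of all. By the study's thresholds, here without a fold change, 0 of the 14 were called, beside 1.76% of all. The legend of the study's gene list for this comparison gives a 2-fold change and a looser adjusted p instead. The median log2 ratio of the 10 genes was -0.03, with 5 above and 5 below 0, and that of all probes was 0. Fewer cells of a type and less RNA per cell cannot be told apart in such bulk samples.

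Top3a was lower in mutant cells. Its log2 ratios of mutant over wild type cells were -1.46 and -0.73, with a fitted value of -1.09 (SE 0.20) and a level 2.14-fold lower (limma adjusted p = 0.0138). The normalized log2 Cy3 intensity of Top3a in untreated wild type cells was 6.80 and 8.14 on the treatment arrays and 7.36 and 6.65 on the arrays of mutant against wild type cells. In untreated mutant cells it was 6.04 and 5.35 in Cy3 and 5.90 and 5.92 in Cy5. On the treatment arrays the 2 mutant Cy3 values lay below the 2 wild type values. Such Cy3 levels did not overlap, in either direction, in 43% of all probes with a value on all 4 arrays. The Cy5 values of the mutant came from the direct arrays, which also gave the ratios. Treated wild type cells had 5.88 and 7.08 in Cy5, and treated mutant cells 5.78 and 5.20, the last of which was not well above background. Wild type replicate 2 was the highest of its group in both dyes.

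Compared within Cy3 on the 4 treatment arrays, Top3a was lower in untreated mutant cells by a fitted log2 difference of -1.77 (SE 0.48, n = 2 arrays per genotype, limma adjusted p = 0.17). In this comparison 0 of 14 probes passed the adjusted p, beside 0.534% of all 40267, and 1, Top3a, the unadjusted p, beside 10.2%. Without wild type replicate 1, which left a lone wild type array assumed to vary like the mutant arrays, the value was -2.44 (limma adjusted p = 7.82e-06, against up to 0.963 under the other alternatives). Within Cy5, treated mutant and treated wild type cells differed by -0.99 (SE 0.48, limma adjusted p = 0.576). The Cy3 comparison and the H2O2 response of Top3a in wild type cells share the same untreated wild type signals, so a high value there enters both.

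**Figure D2:**
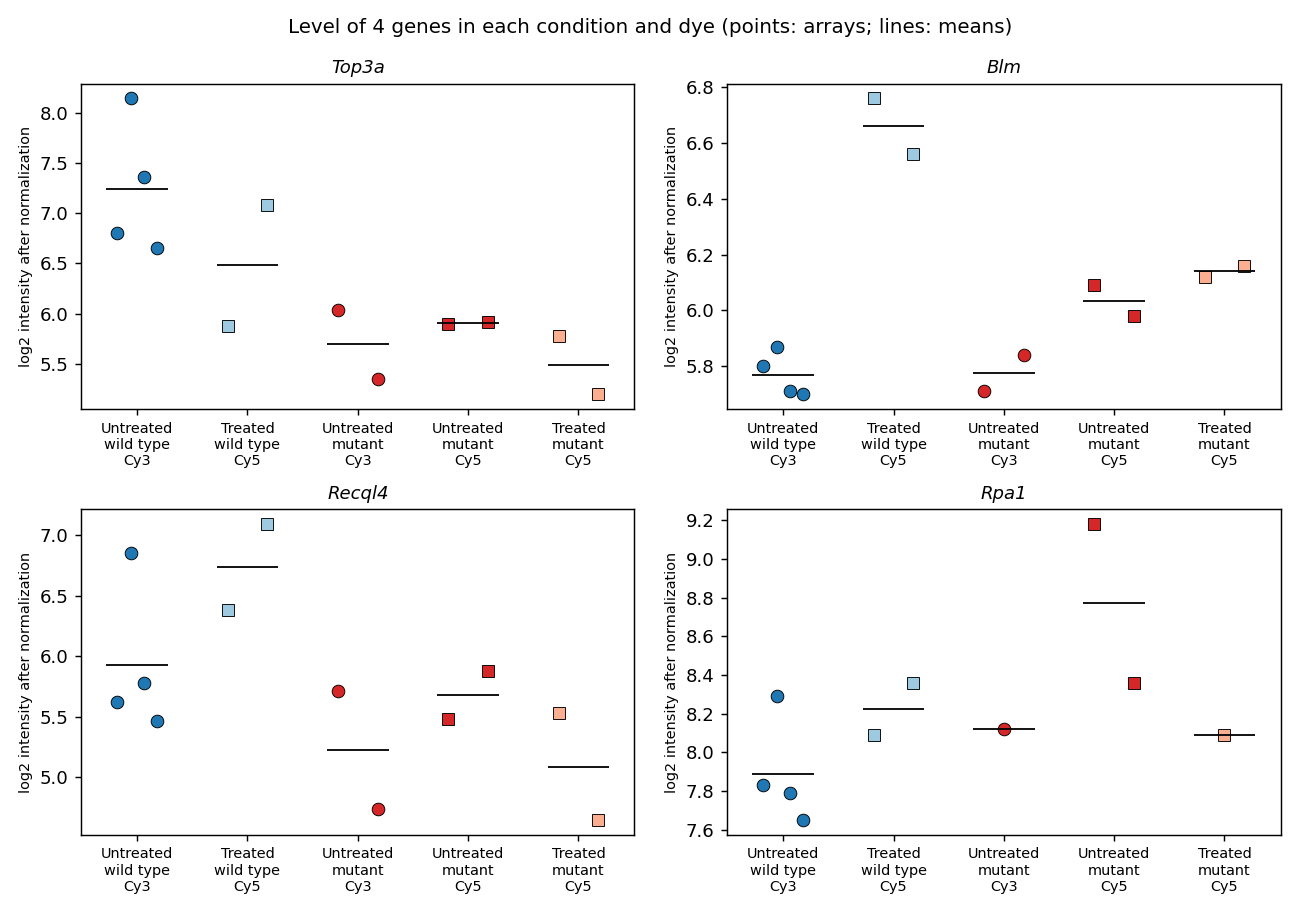
Normalized log2 intensity (y axis) of Top3a, Blm, Recql4 and Rpa1 on each array, by condition and dye (x axis; circles Cy3, squares Cy5); lines are means and outlier spots are left out. Top3a runs from 5.35 to 6.04 in untreated mutant cells (Cy3 and Cy5) and from 6.65 to 8.14 in untreated wild type cells (Cy3). Rpa1 is high in the mutant cells labelled with Cy5 (9.18 and 8.36).

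Rpa1, probe A_51_P333159, was higher in mutant cells on the arrays that compared the genotypes directly, with log2 ratios of 1.39 and 0.70. The fitted value was 1.05 (SE 0.22), a level 2.06-fold higher (limma adjusted p = 0.0237). Untreated mutant cells had a normalized log2 intensity of 9.18 and 8.36 in Cy5, but 8.12 in Cy3 on mutant replicate 1, its spot on replicate 2 being an outlier. In untreated wild type cells the Cy3 values were 7.83, 8.29, 7.79 and 7.65. The Cy3 value of the mutant thus lay within the range of the wild type, and the difference within Cy3 was 0.06 (SE 0.50, limma adjusted p = 0.978). Treated cells differed by -0.13 in Cy5. The 2 measures of the untreated genotypes were not tested against each other, and a preference of this probe for Cy5 was not tested. The other RPA subunits had fitted log2 ratios of -0.19 (Rpa2) and 0.35 (Rpa3) for mutant over wild type cells, neither past the adjusted p.

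Recql, the shortest of the mouse RecQ helicases and an unwinder of forked DNA, was lower in mutant cells on the direct arrays. Probe A_51_P297963 gave log2 ratios of -0.57 and -1.04, with a fitted value of -0.81 (SE 0.19) and a level 1.75-fold lower (limma adjusted p = 0.0351). The other Recql probe, A_52_P298213, gave -0.16 and -1.89 (fitted -1.03, limma adjusted p = 0.0942), and its Cy5 signal was not well above background on any array. The Cy5 levels of the brighter probe in mutant cells were 5.95 and 5.33, the second not well above background. Within Cy3 it read 5.90 and 6.48 in mutant cells and 6.56 on the wild type treatment array that measured it. That difference, -0.37 (SE 0.50, limma adjusted p = 0.839), was smaller than its SE.

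These 3 calls depended on the arrays fitted together. With the 2 arrays of the comparison alone, limma's adjusted p was 0.0973 for Top3a, 0.108 for Rpa1 and 0.184 for Recql, and none of the 14 probes passed. The same held with the log ratio of Feature Extraction (adjusted p of 0.0733, 0.112 and 0.128). Normexp background correction ended the calls of Top3a (-0.68) and Rpa1 (0.89), each with a limma adjusted p of 0.0597, while Recql (-0.36, adjusted p = 0.0337) and Xrcc5 (-0.53, adjusted p = 0.0295) passed. Recql also lost its call with median centring (adjusted p = 0.131) and with the mean of its probes (adjusted p = 0.0516). Without any one of the 4 treatment arrays Top3a alone passed, with Rpa1 between 0.0508 and 0.0539 and Recql between 0.0558 and 0.0973. Leaving out replicate 4 or replicate 3 of the direct comparison left it to a lone array, and Recql lost its call without replicate 4. On replicate 3 alone Terf2 gave -1.01 and Xrcc5 -0.75, and on replicate 4 alone they gave -0.27 and -0.43. The sign of the 3 genes was the same under every alternative tried.

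The other members did not pass the adjusted p in this comparison. Blm gave log2 ratios of 0.38 and 0.27 (fitted 0.32, limma adjusted p = 0.185). Its normalized log2 intensity in untreated mutant cells was 5.71 and 5.84 in Cy3 but 6.09 and 5.98 in Cy5, and 5.70 to 5.87 in untreated wild type cells in Cy3, so the mutant values within Cy3 overlapped those of the wild type. Treated wild type cells had 6.76 and 6.56 in Cy5, above the 6.12 and 6.16 of treated mutant cells. The fitted difference was -0.52 (SE 0.39, limma adjusted p = 0.739).

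Recql4 gave log2 ratios of -0.29 and 0.41 on the direct arrays, on both sides of 0. Its normalized log2 intensity in treated cells was 6.38 and 7.09 in wild type and 5.53 and 4.65 in mutant cells, the last not well above background. The difference within Cy5 was -1.65 (SE 0.45, limma adjusted p = 0.242), and in untreated cells within Cy3 it was -1.01 (SE 0.48, limma adjusted p = 0.501). In the Cy5 comparison 0 of 14 probes passed the adjusted p, beside 0.368% of all, and 1, Recql4, the unadjusted p, beside 9%. Without wild type replicate 1 the value was -2.01 (limma adjusted p = 0.00296, against up to 0.996 under the other alternatives), from the lone wild type array with the higher level. On the treatment arrays 7 probes had a value on all 4. Of these, 4 had Cy5 levels that did not overlap between genotypes and 3 had such Cy3 levels, with the mutant below each time. The dimmer Recql probe, in both sets, was not well above background on these arrays. Nor were the mutant Cy3 spots of Recql5. Such separation, in either direction, held for 39.4% and 43.0% of all probes. Of all probes, 2524 were lower and 1101 higher in mutant cells at limma's unadjusted p within Cy5. Within Cy3 these counts were 2997 and 1104.

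Recql5 gave -0.24 and -0.01 for mutant over wild type cells. Within Cy3 its log2 intensity was 3.86 and 4.31 in mutant and 4.33 and 5.30 in wild type cells, with neither mutant spot well above background. The fitted difference was -0.73 (SE 0.43, limma adjusted p = 0.591).

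**Figure D3:**
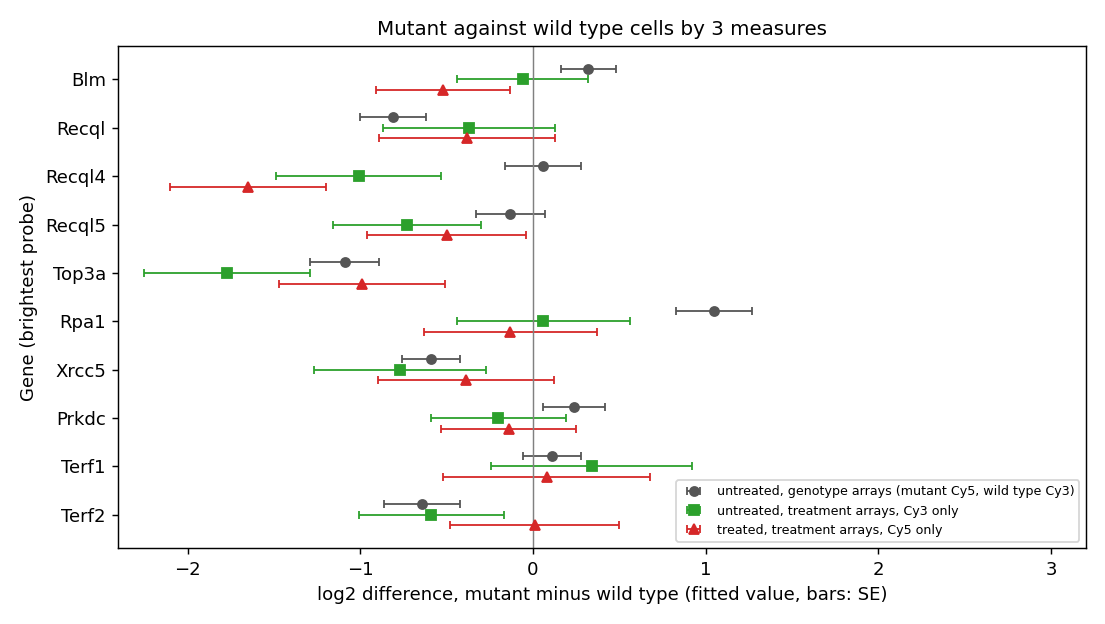
Fitted log2 difference of mutant minus wild type cells (x axis; bars, SE) for the 10 genes (y axis), from the direct arrays of untreated cells, from Cy3 of the treatment arrays (untreated) and from their Cy5 (treated), n = 2 arrays per genotype or comparison. Top3a is below 0 by all 3 measures (-1.09, -1.77 and -0.99), whereas Rpa1 is above 0 by 1.05 on the direct arrays and near 0 by the others.

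Of the end joining members, Xrcc5 gave log2 ratios of -0.75 and -0.43 for mutant over wild type cells (fitted -0.59, SE 0.17, limma adjusted p = 0.0618). Within Cy3 it read 7.70 and 8.20 in mutant cells and 8.72 on the wild type treatment array that measured it (difference -0.77, SE 0.50, limma adjusted p = 0.627). With the outlier spots kept, the adjusted p of the direct comparison was 0.0425 (-0.57 by limma). Prkdc gave -0.01 and 0.50, and its Cy5 signal was not well above background on either direct array.

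The telomere member Terf1 gave 0.12 and 0.11 for mutant over wild type cells (fitted 0.11, SE 0.17). Terf2 gave -1.01 and -0.27 on its brightest probe (fitted -0.64, SE 0.22, limma adjusted p = 0.0862). Its other 3 probes, all annotated to the same transcript, gave fitted values of 0.32, -0.64 and -0.46 for mutant over wild type cells and of 0.65, 0.13 and -0.34 for H2O2-treated wild type cells. The 3 values for treated wild type cells came from replicate 1 alone and the 0.32 and -0.64 of these probes from replicate 3 alone. The spots on the other replicate were outliers. With those spots kept, the probe with 0.32 gave 0 on replicate 4. The probe with -0.34 gave 0.35 on wild type replicate 2. The fitted values of the Terf2 probes therefore differed in sign in both comparisons, and no direction is given for the gene. Between arrays of the same untreated genotype, the brightest probe also moved widely. In untreated mutant cells it read 8.87 and 9.81 in Cy5 and 9.99 and 10.54 in Cy3, a mean difference of -0.93.

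**Figure D4:**
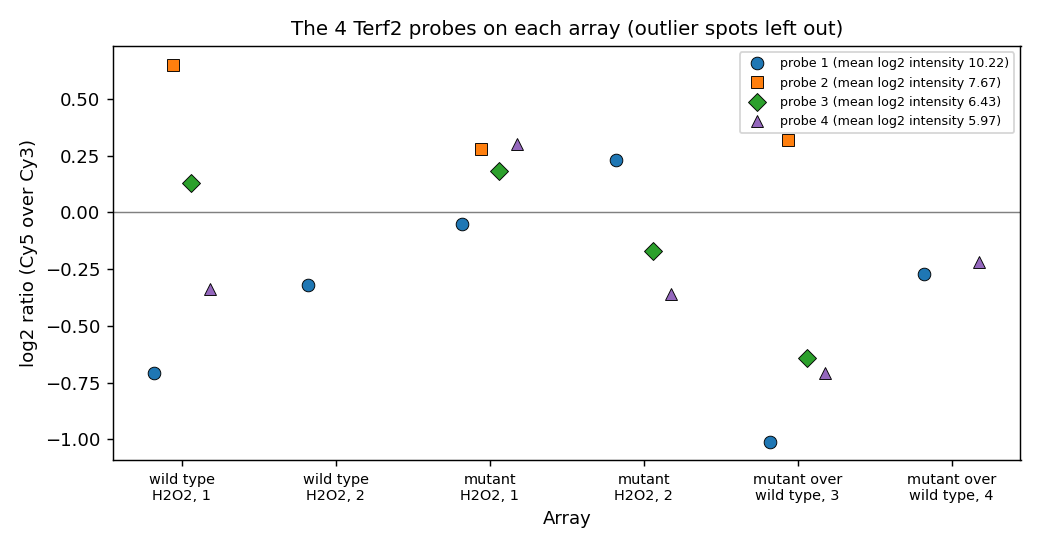
log2 ratios of Cy5 over Cy3 (y axis) of the 4 Terf2 probes on each of the 6 arrays (x axis), numbered by mean log2 intensity. The probes lie on both sides of 0 on wild type replicate 1 (-0.71 to 0.65) and on replicate 3 of mutant over wild type cells (-1.01 to 0.32); outlier spots are missing.

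Untreated mutant cells in Cy5, on the direct arrays, minus untreated mutant cells in Cy3, on the treatment arrays, had a median log2 difference of -0.08 over all probes, with 5% of probes below -1.01 and 5% above 0.71. This difference was 0.65 for Rpa1, 0.21 for Top3a, 0.26 for Blm and -0.55 for Recql. Dye and set of arrays cannot be told apart in it. Untreated wild type cells were in Cy3 on both sets, and their direct minus treatment arrays gave -0.34, -0.47, -0.13 and -0.11 for the same genes. Over all probes the median of that difference was -0.22, with 5% of probes below -0.95 and 5% above 0.41.

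Further genes of these pathways were counted from lists of other Wrn partners and complexes. In treated wild type and treated mutant cells 0 listed genes passed limma's adjusted p. The 5 licensing helicase subunits measured in treated wild type cells (Mcm genes) had fitted log2 ratios above 0, with a median of 0.71, and 4 of them passed the unadjusted p, as did 20% of all probes. Of these 4, Mcm6 alone had a value on both arrays (0.60 and 0.56). Mcm3, Mcm5 (0.71, the median) and Mcm7 had a value on replicate 1 alone. For mutant over wild type cells, 1 of the 19 other Wrn partners with a value passed the adjusted p with a higher level, the double-strand break sensor Nbn (0.68, adjusted p = 0.0256). Lower levels were found in 5 of the 19, and 19.6% of all probes passed in either direction. These were Mre11a, the nuclease that works with Nbn (-1.85, limma adjusted p = 0.00464), Fen1, which cuts 5′ flaps (-1.24, adjusted p = 0.0115), Brca1 (-0.89, adjusted p = 0.0245), the exonuclease Exo1 (-0.73, adjusted p = 0.0347) and the sliding clamp Pcna (-0.69, adjusted p = 0.0402). In the end joining list of 6 measured genes, DNA ligase Lig4 was lower (-0.89, limma adjusted p = 0.0128) and its cofactor Xrcc4 higher (1.01, adjusted p = 0.029), beside the same 19.6%. Shelterin had 0 of 4 measured genes past the adjusted p in this comparison. The median over the 19 other partners was -0.29, against 0 over all probes.

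Growth genes and fibroblast markers were counted on the same arrays, where 19.6% of all probes passed. For mutant over wild type cells the 8 proliferation genes had a median log2 ratio of -0.51, with 7 below 0, and Top2a (-1.89) and Ccnb1 (-0.68) passed limma's adjusted p (0.0116 and 0.0286). The 6 licensing genes were all below 0, with a median of -0.41, and 0 of them passed the adjusted p and 3 the unadjusted p. All 7 fibroblast markers with a value were above 0, with a median of 1.01, and 4 passed, with the largest log2 ratio for the matrix gene Dcn (2.71, limma adjusted p = 0.00182). Of these 4, Col1a1 (1.01, the median) had a value on replicate 4 alone and Col3a1 (1.55) on replicate 3 alone. With outlier spots kept in the sum, the Cy3 intensity of the 8 fibroblast markers ran from 62200 to 80000 in the 4 untreated wild type samples. It was 93200 and 108000 in the untreated mutant samples. The part of these markers in the values of Top3a, Rpa1 and Recql was not tested.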

How the data were processed

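The authors deposited, for each of the 6 arrays, the mean and local background intensity of every spot in Cy3 and Cy5 with Feature Extraction's flags (scores without a unit) and its log10 ratio, and a value table of the series with log2 ratios, background subtracted and loess normalized by the authors. The file headers name Feature Extraction 7.5.1. The labels give total RNA and the study's methods cytoplasmic RNA.

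From the deposited intensities, background was subtracted and log2 ratios were normalized by loess within arrays in limma 3.58.1 (R 4.3.3, with version 1.17.8 of data.table). Control and outlier spots were left out, saturated spots kept, and spots of a probe averaged. The summed marker intensities kept the outlier spots. One limma model (lmFit, eBayes) held the 6 arrays and a coefficient for each of the 3 comparisons (3 residual and 3.98 prior degrees of freedom). P-values are two-sided, with Benjamini-Hochberg adjustment over all non-control probes. Channel levels were taken after quantile scaling of the mean intensity of arrays (Aquantile). The number of arrays limits the precision. The code was tested on simulated data. Promoter windows came from a RefSeq table (6 of 10 genes matched), and plots from Python 3.11.15, pandas 2.3.3 and matplotlib 3.10.9.

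The members, lists and tests were chosen with earlier results of these data known. The genes named are all 10 members and, from the lists, those with an adjusted p under 0.05, with Wrn, Rpa2, Rpa3 and markers added as context. Alternatives covered background, normalization, outlier spots, dim probes, the deposited ratios, probe averaging, single arrays left out and a replicate block. The authors' own lists of fold changes were not used as values.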

Additional observations from a re-analysis of the deposited data

How the results depend on the processing

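Counts of member probes past limma's adjusted p moved as follows. For treated wild type cells, 0 became 1 with normexp background correction (offset 50), 2 with dim probes left out, 5 with the arrays of the comparison alone, and 0 to 4 with a single array left out. For untreated mutant against wild type cells, 3 became 2 with normexp (with the calls of Top3a and Rpa1 lost) and 2 with median centring (that of Recql lost), 0 with the log ratio of Feature Extraction, 0 with the arrays of the comparison alone, and 1 to 5 with a single array left out. Within Cy3 and within Cy5 the count was 0 to 2 with a single array left out, both times 2 without wild type replicate 1. It stayed 0 for treated mutant cells and for the difference of response under every alternative tried. Over all probes the count for treated wild type cells ran from 0 to 10115 and that for untreated mutant against wild type cells from 2057 to 16160.

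No value that changed sign had passed the adjusted p. With median centring these were, in treated wild type cells, Xrcc5 (0.18), Terf1 (0.24) and Terf2 (0.05), in treated mutant cells Recql5 (-0.44), Rpa1 (1.04) and Terf1 (0.56), and in the difference of response Recql (0.04), Recql5 (-0.44), Rpa1 (0.38), Prkdc (-0.04) and Terf1 (0.32). With outlier spots kept they were Recql in the difference (0.12), Blm (0.24) and Terf1 (-0.60) within Cy3, and Xrcc5 (0.05), Prkdc (0.06) and Terf1 (-0.59) within Cy5. The series value table gave the same 0.12 for Recql. Normexp turned Xrcc5 in mutant cells (-0.02) and Recql4 between untreated genotypes (-0.01). The Feature Extraction ratio (0.06) and the mean of all probes of a gene (0.08) turned Recql in the difference, and quantile normalization turned Terf2 within Cy5 (-0.01). The cause was not tested. With a single array left out, values ran across 0 for Recql5 in treated wild type cells (-0.11 to 0.29), in the difference (-0.06 to 0.54) and within Cy5 (-1.03 to 0.03), for Xrcc5 (-0.02 to 0.06) and Terf2 (-0.05 to 0.23) in treated mutant cells, for Recql4 (-0.29 to 0.41) and Prkdc (-0.01 to 0.50) between untreated genotypes, for Prkdc (-0.07 to 0.20) and Recql (-0.11 to 0.08) in the difference, for Rpa1 within Cy3 (-0.16 to 0.29), and for Prkdc (-0.31 to 0.02) and Terf2 (-0.57 to 0.59) within Cy5.

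Wild type and mutant treatment arrays share replicate numbers, but with 2 pairs they share only a number, and deviations from the group means correlated with r = -0.046. With the replicate block 0 members passed in the difference of response, within Cy3 and within Cy5, as without it, beside 0, 15 and 98 of all probes. Slide and scan date as a block could not be fitted, because each slide held 1 array and the files used here give no scan date. Cy5 signals close to background limit Recql5, Prkdc and the dimmer Recql probe.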
